A study of Mus musculus with 9 samples.

Results

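Chemokines are small secreted proteins that guide the migration of leukocytes, and chemokine receptors are the G protein-coupled receptors through which cells sense them. The genes described here were taken by symbol from the gene rows with an Ensembl identifier: every Ccl, Cxcl, Ccr, Cxcr and Xcr gene together with Xcl1, Cx3cl1 and Cx3cr1. The rule found 56 genes, 38 ligands and 18 receptors, of 22036 such rows. Of the 56 genes, 41 had enough reads to be tested (29 ligands and 12 receptors of 14160 genes tested), 11 had reads but too few, and 4 (Ccl20, Ccl26, Cxcl15 and Cxcl17) had no read in any library.

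The RNA came from left ventricles of wild-type mice in 3 groups with 3 biological replicates each, and p-values below measure the spread between these libraries. HFD AAV-BCKDK mice were on HFD, taken to mean high-fat diet, and received an adeno-associated virus (AAV) vector named for BCKDK, the mitochondrial kinase that phosphorylates and restrains the branched-chain ketoacid dehydrogenase. HFD AAV-CON mice had the same diet with a control vector, and ND AAV-CON mice the control vector on ND, taken to mean normal diet. The title of the series places the work in obesity-induced remodelling of the heart. All groups received a vector, and no group combined the ND diet with the BCKDK vector, so diet and vector differ together between HFD AAV-BCKDK and ND AAV-CON. Not given in the sources used here: promoter and dose of the vector, the composition and length of the diet, and the age and sex of the mice.

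Chemokines are named for the spacing of conserved cysteines (CC, CXC, CX3C and XC), and many bind several receptors. Inflammatory ligands are made on stimulation: Ccl2 and Ccl7 draw Ccr2-bearing monocytes, Cxcl9 and Cxcl10 are interferon-induced ligands of Cxcr3 on T and NK cells, and Cxcl1, Cxcl2 and Cxcl5 draw neutrophils through Cxcr2. Homeostatic ligands such as Cxcl12, which acts through Cxcr4, are made constantly by stromal and endothelial cells. In the heart, resident macrophages lacking Ccr2 are distinguished from monocyte-derived ones that carry it.

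The libraries held between 32803233 and 45483044 counts in annotated genes, and levels are given in CPM, the usual depth-scaled count unit, after scaling by TMM factors, a normalisation on the bulk of genes. Bckdk had 110.9, 126 and 119.9 CPM in the HFD AAV-BCKDK libraries, against 37.1, 65.0 and 49.5 CPM in HFD AAV-CON and 78.6, 70.3 and 70.6 CPM in ND AAV-CON, so the group given the BCKDK vector was highest in every library. Summed cardiomyocyte marker levels lay at 43320 to 46210 CPM in HFD AAV-BCKDK, 22470 to 38700 CPM in HFD AAV-CON and 48690 to 50670 CPM in ND AAV-CON, and none of these markers was at 0 in any group. Mitochondrially encoded transcripts took 26.07% to 39.87% of counts in HFD AAV-CON, against 42.11% to 47.6% in the other groups. HFD AAV-CON replicate 3 stood apart: loci without a gene name took 1.02% of its counts, against 4.75% to 6.02% in the other libraries. Its level lay between those of the other HFD AAV-CON libraries for 64.2% of all genes tested. The other libraries of the series gave 14.8% to 37.1% of genes for the same measure. Of the 41 tested chemokine genes it lay between for 36, where the other libraries gave 1 to 27. Whether HFD AAV-CON replicate 3 was independent of the other HFD AAV-CON libraries was not tested, and calls that rest on it are named below. Within ND AAV-CON, replicate 3 was the highest library for 29 of the 41 genes and replicate 2 the lowest for 30. Over all 14160 genes tested these were 4789 and 5175. Within HFD AAV-BCKDK, replicate 1 was the lowest for 30 of the 41, and for 5538 of all genes. Within HFD AAV-CON, replicate 1 was the highest for 29 and replicate 2 the lowest for 27, against 5575 and 6150 of all genes.

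Of promoters, RefSeq (build GRCm38.p6, the same assembly as mm10) held windows of 300 bases, from 250 before to 50 after a gene's start, for 41 of the 56 genes. They are shown for the 4 called ligands with the highest CPM per kb of coding length over all libraries (Cxcl12, Cxcl9, Ccl6 and Ccl9), for Cxcr4, a called receptor of high level on the same scale, and for Cxcl10 and Cxcl2, which were chosen after their values were seen because Cxcl10 neighbours Cxcl9 and Cxcl2 was not called. Capitals mark matches, on either strand, to the NF-kB consensus, to the interferon response core GAAANNGAAA, to the GAS element TTCNNNGAA or to the AP-1 site TGANTCA.
Cxcl9 promoter, chr5:92328030-92328329, minus strand: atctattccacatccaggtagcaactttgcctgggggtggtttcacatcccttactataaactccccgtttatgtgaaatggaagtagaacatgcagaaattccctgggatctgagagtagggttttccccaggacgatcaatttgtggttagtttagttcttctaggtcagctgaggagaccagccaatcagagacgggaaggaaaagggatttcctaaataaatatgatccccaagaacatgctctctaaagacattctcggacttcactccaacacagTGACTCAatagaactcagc
Cxcl10 promoter, chr5:92348840-92349139, minus strand: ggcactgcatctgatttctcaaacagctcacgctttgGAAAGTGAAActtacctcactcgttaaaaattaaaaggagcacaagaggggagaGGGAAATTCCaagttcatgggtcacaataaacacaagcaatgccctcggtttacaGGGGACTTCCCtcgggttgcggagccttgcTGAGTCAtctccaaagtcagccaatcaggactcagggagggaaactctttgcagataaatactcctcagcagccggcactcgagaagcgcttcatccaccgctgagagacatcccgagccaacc
Ccl6 promoter, chr11:83593038-83593337, minus strand: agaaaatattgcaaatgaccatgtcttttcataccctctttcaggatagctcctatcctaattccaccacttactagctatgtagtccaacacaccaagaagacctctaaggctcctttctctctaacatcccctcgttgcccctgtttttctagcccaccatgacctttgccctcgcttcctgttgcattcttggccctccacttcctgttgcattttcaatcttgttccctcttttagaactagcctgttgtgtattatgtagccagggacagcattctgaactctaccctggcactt
Ccl9 promoter, chr11:83578587-83578886, minus strand: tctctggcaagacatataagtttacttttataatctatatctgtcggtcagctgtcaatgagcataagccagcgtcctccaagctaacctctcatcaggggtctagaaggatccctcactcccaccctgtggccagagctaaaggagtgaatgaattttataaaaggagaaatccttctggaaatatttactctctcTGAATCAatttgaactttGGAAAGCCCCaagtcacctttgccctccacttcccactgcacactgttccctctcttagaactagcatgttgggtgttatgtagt
Cxcl2 promoter, chr5:90903649-90903948, plus strand: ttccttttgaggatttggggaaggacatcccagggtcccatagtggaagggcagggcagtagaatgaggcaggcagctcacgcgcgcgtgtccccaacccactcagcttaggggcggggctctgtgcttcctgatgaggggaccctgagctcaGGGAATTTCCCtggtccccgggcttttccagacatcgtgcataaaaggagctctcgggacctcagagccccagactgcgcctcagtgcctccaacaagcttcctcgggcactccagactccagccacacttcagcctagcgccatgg
Cxcl12 promoter, chr6:117168285-117168584, plus strand: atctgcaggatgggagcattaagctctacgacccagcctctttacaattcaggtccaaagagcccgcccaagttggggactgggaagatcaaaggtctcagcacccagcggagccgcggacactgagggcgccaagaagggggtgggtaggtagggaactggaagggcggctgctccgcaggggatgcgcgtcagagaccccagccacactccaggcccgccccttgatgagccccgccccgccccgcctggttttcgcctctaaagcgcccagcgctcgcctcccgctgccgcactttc
Cxcr4 promoter, chr1:128592250-128592549, minus strand: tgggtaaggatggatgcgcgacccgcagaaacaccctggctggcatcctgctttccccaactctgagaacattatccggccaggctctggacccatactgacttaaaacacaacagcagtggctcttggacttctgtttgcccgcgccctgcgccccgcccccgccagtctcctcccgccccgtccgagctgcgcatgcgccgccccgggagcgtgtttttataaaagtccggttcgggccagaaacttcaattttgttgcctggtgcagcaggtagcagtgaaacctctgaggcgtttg

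The Cxcl10 window held the interferon response core 213 bases before the start, NF-kB matches beginning 159, 104 and 103 bases before it (the last pair overlapping) and an AP-1 site 74 bases before it. The Cxcl9 window held an AP-1 site 31 bases after the start, the Ccl9 window an AP-1 site and an NF-kB match 53 and 35 bases before it, and the Cxcl2 window overlapping NF-kB matches 97 and 96 bases before it. The windows of Cxcl12, Ccl6 and Cxcr4 held none of these letters. Over the 48 chemokine and receptor windows, an NF-kB match stood in 22.9%, against 8.46% of all 32851 windows of the table. The AP-1 site stood in 18.8% of the chemokine windows against 7.81% of all, the interferon response core in 6.25% against 3.44%, and the GAS element in 6.25% against 8.3%. The NF-kB match was found for 11 genes (Ccl1, Ccl20, Ccl27a, Ccl9, Ccr1, Ccr3, Ccr6, Cxcl1, Cxcl10, Cxcl2 and Cxcl3). Among them only Ccl9, Ccr1 and Cxcl10 were called in any comparison below. Ccl27a, Cxcl1 and Cxcl2 were tested and not called, and the rest had too few reads to be tested. These matches describe letters only.

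HFD AAV-CON was compared with ND AAV-CON to ask about the diet under the control vector. Most tested chemokine and receptor transcripts rose: 26 of 41 were called higher at a false discovery rate of 0.05 by edgeR's quasi-likelihood test, where 22.7% of all genes tested were called higher, and 2, Cxcl12 and Ccl24, were called lower, where 20.6% of all genes were. The 26 comprised 16 ligands and 10 receptors, and 13 genes were not called. The median log2 fold change of the 41 was 2.01, against -0.0018 over all genes tested. In bulk tissue, fewer cells of a type and less RNA per cell cannot be told apart. With HFD AAV-CON replicate 3 left out, 19 genes were called higher and 2 lower. Calls over all genes, in both directions, then went from 6134 to 4050, so the loss was not particular to chemokine genes. Ccl17, Ccl19, Ccr7, Ccr8 and Cxcr5 passed the filter on low counts mainly, and Ccr8 only, through HFD AAV-CON, with fewer than 3 libraries of other groups at its minimum of 0.248 CPM, so their own tests, and the counts and medians over tested genes, lean towards a high HFD AAV-CON and support nothing by themselves.

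HFD AAV-BCKDK was set against HFD AAV-CON to ask about the BCKDK vector in mice on HFD. Here 26 of the 41 were called lower, where 20.9% of all genes tested were called lower, and 2, Ccl24 and Cxcl12, were called higher, where 17.3% of all genes were. The 26 comprised 16 ligands and 10 receptors. The median log2 fold change was -1.97, the same with Ccr8 set to its bound, against -0.0101 over all genes tested. Counts of called genes in lists and clusters below are to be set against the shares over all genes tested. These were 22.7% higher and 20.6% lower under the diet, and 17.3% higher and 20.9% lower with the vector. Without HFD AAV-CON replicate 3, 16 were called lower and 2 higher, and calls over all genes, in both directions, went from 5410 to 2847. Both comparisons share the HFD AAV-CON libraries, so a high or low value there enters them with opposite signs, and the changes are given side by side below for each gene. Without HFD AAV-CON replicate 3 the direction of these changes stayed, and the adjusted p was above 0.05 for the diet in 7 genes, whose log2 fold changes were then 1.02 to 3.52 against 1.0 to 3.55 with all libraries: Ccl4, Ccl12, Ccl19, Cxcl14, Ccr1, Ccr8 and Cxcr3. The same held for the vector in 10 genes, at -0.80 to -3.71 against -0.78 to -3.75 with all libraries: Ccl3, Ccl4, Ccl9, Ccl17, Ccl19, Cxcl14, Ccr2, Cxcr3, Cxcr5 and Cx3cr1.

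**Figure D1:**
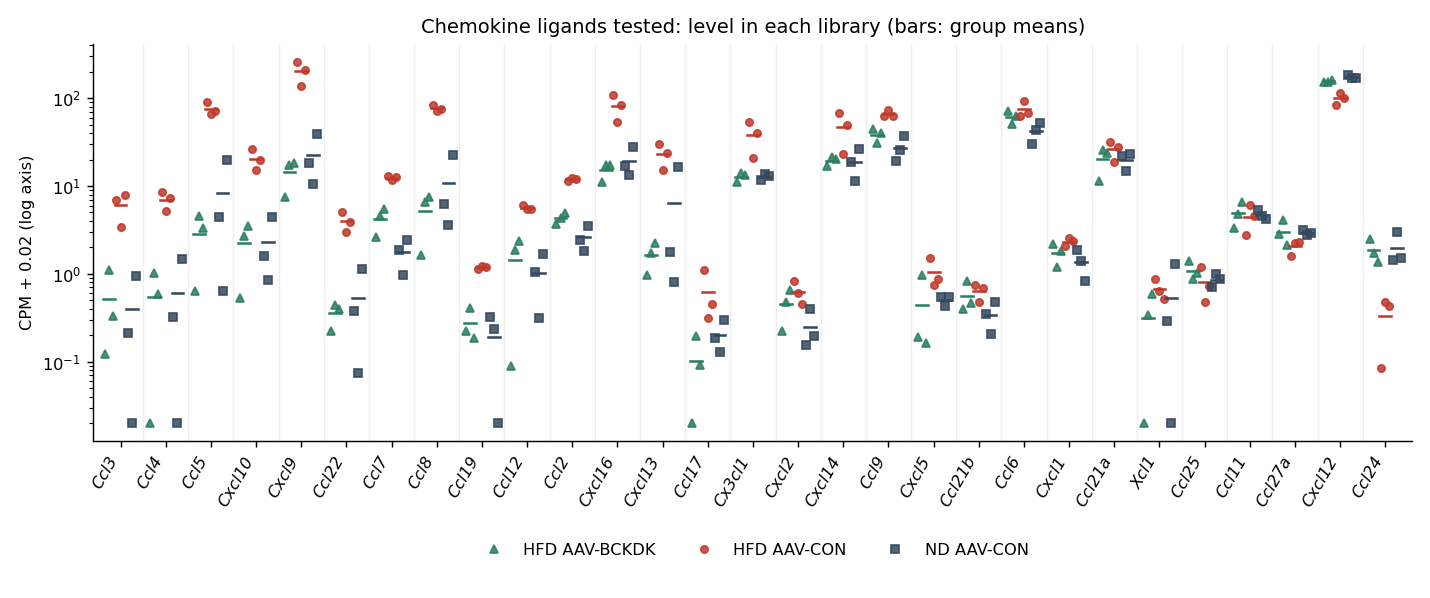
Level of each tested ligand in CPM plus 0.02 on a log axis, with a triangle, circle or square for each library of HFD AAV-BCKDK, HFD AAV-CON and ND AAV-CON and a bar at each group mean; genes run from the highest to the lowest log2 fold change of HFD AAV-CON against ND AAV-CON. HFD AAV-CON stands above both other groups from Ccl3 to Cxcl16, and below them for Cxcl12 and Ccl24 at the right end.

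Both tested ligands of Cxcr3 rose under the diet and fell with the vector. Cxcl9 and Cxcl10, interferon-induced attractants of activated T and NK cells, lie beside Cxcl11 on mm10 chromosome 5 from 92321347 to 92365485. Cxcl9 had 7.47, 17.3 and 18.3 CPM in the HFD AAV-BCKDK libraries, against 258, 137 and 209 CPM in HFD AAV-CON and 18.4, 10.5 and 38.8 CPM in ND AAV-CON. Every HFD AAV-CON library exceeded every library of the other groups, and the lowest of all was HFD AAV-BCKDK replicate 1. Cxcl9 rose on the log2 scale by 3.16 (SE 0.50, adjusted p = 0.00164) in HFD AAV-CON against ND AAV-CON, and fell by 3.81 (SE 0.52, adjusted p = 0.00149) in HFD AAV-BCKDK against HFD AAV-CON. Cxcl9 under the diet came to 3.80 without ND AAV-CON replicate 3 (adjusted p = 0.00144). Cxcl10 had 0.512, 2.65 and 3.51 CPM in the HFD AAV-BCKDK libraries, against 26.3, 15.1 and 19.8 CPM in HFD AAV-CON and 1.59, 0.837 and 4.37 CPM in ND AAV-CON. Again no HFD AAV-CON library overlapped the others, while HFD AAV-BCKDK and ND AAV-CON overlapped each other. With the diet Cxcl10 rose by 3.16 (SE 0.65, adjusted p = 0.00482), and with the BCKDK vector it fell by 3.17 (SE 0.65, adjusted p = 0.00676). Cxcl10 under the diet came to 4.07 without ND AAV-CON replicate 3 (adjusted p = 0.00325). Cxcl10 shares 133 exonic bases with Art3 on the opposite strand, and whether counting used strand is not stated in the labels. Cxcl11, the other ligand of this receptor, had 6, 44 and 6 counts summed over HFD AAV-BCKDK, HFD AAV-CON and ND AAV-CON and was not tested. Summed T and NK cell markers, apart from chemokine receptors, were 3.79 to 18.3 CPM in HFD AAV-BCKDK, 143 to 253 CPM in HFD AAV-CON and 3.48 to 57.9 CPM in ND AAV-CON, with 10 of 15 called higher under the diet and 13 lower with the vector. Within ND AAV-CON the marker sum was highest in replicate 3 at 57.9 CPM, against 13.6 and 3.48 CPM, and that library also had the most Cxcl9 and Cxcl10 of its group. The part of these cells in the result was not tested.

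The monocyte attractants Ccl2, Ccl7 and Ccl12, ligands of Ccr2, share a cluster with Ccl8 on chromosome 11 from 82035571 to 82305690. Ccl2 had 3.69, 4.35 and 4.96 CPM in the HFD AAV-BCKDK libraries, against 11.5, 12.3 and 12.1 CPM in HFD AAV-CON and 2.43, 1.81 and 3.48 CPM in ND AAV-CON. The HFD AAV-CON libraries were tightly grouped and above all others, and each HFD AAV-BCKDK library was above each ND AAV-CON library. Ccl2 rose by 2.21 (SE 0.22, adjusted p = 0.000401) in HFD AAV-CON against ND AAV-CON, and fell by 1.46 (SE 0.21, adjusted p = 0.00185) in HFD AAV-BCKDK against HFD AAV-CON. Ccl7 had 2.63, 4.49 and 5.46 CPM in the HFD AAV-BCKDK libraries, against 13, 11.8 and 12.6 CPM in HFD AAV-CON and 1.83, 0.945 and 2.42 CPM in ND AAV-CON. The same order of groups held, with no overlap between any of them. Ccl7 rose by 2.84 (SE 0.34, adjusted p = 0.000651) in the diet comparison, and fell by 1.56 (SE 0.32, adjusted p = 0.00638) in the vector comparison. Ccl12 had 0.0683, 1.84 and 2.33 CPM in the HFD AAV-BCKDK libraries, against 5.98, 5.44 and 5.44 CPM in HFD AAV-CON and 1.04, 0.297 and 1.67 CPM in ND AAV-CON. HFD AAV-CON again stood above the rest, and within HFD AAV-BCKDK replicate 1 was near 0. With the diet Ccl12 rose by 2.48 (SE 0.79, adjusted p = 0.0301), and with the BCKDK vector it differed by -1.97 (SE 0.77, adjusted p = 0.0687), not past the threshold. The Ccl12 rise under the diet was not called without HFD AAV-CON replicates 1 or 3 or ND AAV-CON replicates 1 or 2, or with the unnamed loci kept (log2 2.05 to 2.51, adjusted p 0.0569 to 0.0855). Ccl12 under the diet came to 3.07 without ND AAV-CON replicate 3 (adjusted p = 0.0336). Ccl12 under the BCKDK vector passed the test under total-count scaling (log2 -2.42, adjusted p = 0.0282) and under limma-voom (log2 -2.78, adjusted p = 0.0281). Ccl8 had 1.64, 6.54 and 7.53 CPM in the HFD AAV-BCKDK libraries, against 84.2, 71.2 and 74.3 CPM in HFD AAV-CON and 6.26, 3.62 and 22.6 CPM in ND AAV-CON. Ccl8, which in mice acts on Ccr8, was above all other libraries in HFD AAV-CON, and ND AAV-CON replicate 3 was well above its group. Ccl8 rose by 2.82 (SE 0.65, adjusted p = 0.00818) in the diet comparison, and fell by 3.85 (SE 0.69, adjusted p = 0.00399) in the vector comparison. Ccl8 under the diet came to 3.95 without ND AAV-CON replicate 3 (adjusted p = 0.00187).

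Beside the Ccr2 ligands, macrophage and monocyte markers summed to 662 to 832 CPM in HFD AAV-BCKDK, 2099 to 3345 CPM in HFD AAV-CON and 806 to 1094 CPM in ND AAV-CON, with 16 of 21 called higher and 1 lower under the diet and 17 lower and 1 higher with the vector. Among them, Cd14, a co-receptor for bacterial lipopolysaccharide, had 15.5, 10.7 and 10.6 CPM in HFD AAV-BCKDK, 56.6, 31.4 and 48.6 CPM in HFD AAV-CON and 10.9, 10.9 and 11.2 CPM in ND AAV-CON. Every HFD AAV-CON library was above every other. The part of these cells in the result was not tested.

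Ccl3, Ccl4 and Ccl5, inflammatory attractants of T cells and monocytes, and Ccl6 and Ccl9, mouse ligands of Ccr1, lie together on chromosome 11 from 83525778 to 83664683. Ccl5 had 0.614, 4.53 and 3.28 CPM in the HFD AAV-BCKDK libraries, against 90.0, 66.4 and 72.1 CPM in HFD AAV-CON and 4.46, 0.621 and 19.7 CPM in ND AAV-CON. Each HFD AAV-CON library was several times the highest library of the other groups, and ND AAV-CON spread widely. Ccl5 rose by 3.20 (SE 0.90, adjusted p = 0.0186) in HFD AAV-CON against ND AAV-CON, and fell by 4.76 (SE 1.0, adjusted p = 0.00729) in HFD AAV-BCKDK against HFD AAV-CON. The Ccl5 rise under the diet was not called without ND AAV-CON replicate 1 (log2 2.90, adjusted p = 0.0692). Ccl5 under the diet came to 4.91 without ND AAV-CON replicate 3 (adjusted p = 0.00386). Ccl3 had 0.102, 1.1 and 0.309 CPM in the HFD AAV-BCKDK libraries, against 6.87, 3.37 and 7.80 CPM in HFD AAV-CON and 0.191, 0 and 0.934 CPM in ND AAV-CON. Both other groups included a library at or near 0 and none reached HFD AAV-CON. With the diet Ccl3 rose by 3.97 (SE 0.96, adjusted p = 0.0101), and with the BCKDK vector it fell by 3.61 (SE 0.95, adjusted p = 0.0177). Ccl3 under the diet came to 5.93 without ND AAV-CON replicate 3 (adjusted p = 0.00504). The Ccl3 fall under the BCKDK vector was not called without HFD AAV-BCKDK replicates 1 or 3 or HFD AAV-CON replicate 3 (log2 -3.15 to -3.36, adjusted p 0.0562 to 0.0631). Ccl3 under the BCKDK vector came to -4.77 without HFD AAV-BCKDK replicate 2 (adjusted p = 0.0239). Ccl4 had 0, 0.990 and 0.570 CPM in the HFD AAV-BCKDK libraries, against 8.50, 5.20 and 7.27 CPM in HFD AAV-CON and 0.301, 0 and 1.47 CPM in ND AAV-CON. The pattern matched that of Ccl3, with HFD AAV-CON apart from the others. Ccl4 rose by 3.55 (SE 1.01, adjusted p = 0.0198) in the diet comparison, and fell by 3.74 (SE 1.04, adjusted p = 0.0217) in the vector comparison. The Ccl4 rise under the diet was not called without HFD AAV-CON replicate 3 or ND AAV-CON replicate 1, or under DESeq2 (log2 3.23 to 3.58, adjusted p 0.0582 to 0.0789). Ccl4 under the diet came to 5.52 without ND AAV-CON replicate 3 (adjusted p = 0.00786). The Ccl4 fall under the BCKDK vector was not called without HFD AAV-BCKDK replicates 1 or 3 or HFD AAV-CON replicates 1 or 3, or under DESeq2 (log2 -3.19 to -3.82, adjusted p 0.0512 to 0.0711). Ccl4 under the BCKDK vector came to -4.47 without HFD AAV-BCKDK replicate 2 (adjusted p = 0.0431).

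Ccl6 and Ccl9 were far above the filter minimum in every library. Ccl9 had 44.2, 30.9 and 40.0 CPM in the HFD AAV-BCKDK libraries, against 62.1, 73.5 and 62.5 CPM in HFD AAV-CON and 19.4, 25.5 and 37.0 CPM in ND AAV-CON. HFD AAV-CON was above the others without overlap, while HFD AAV-BCKDK and ND AAV-CON overlapped. Ccl9 rose by 1.27 (SE 0.22, adjusted p = 0.00219) in HFD AAV-CON against ND AAV-CON, and fell by 0.78 (SE 0.22, adjusted p = 0.0208) in HFD AAV-BCKDK against HFD AAV-CON. The Ccl9 fall under the BCKDK vector was not called without HFD AAV-BCKDK replicates 2 or 3 or HFD AAV-CON replicate 3 (log2 -0.65 to -0.81, adjusted p 0.0513 to 0.0741). Ccl6 had 72.4, 50.7 and 61.9 CPM in the HFD AAV-BCKDK libraries, against 62.6, 94.0 and 68.2 CPM in HFD AAV-CON and 29.9, 43.8 and 52.7 CPM in ND AAV-CON. Those of HFD AAV-BCKDK overlapped those of HFD AAV-CON, which were above all of ND AAV-CON. With the diet Ccl6 rose by 0.83 (SE 0.22, adjusted p = 0.0160), and with the BCKDK vector it differed by -0.28 (SE 0.22, adjusted p = 0.344), not past the threshold. Ccl6 under the BCKDK vector passed the test under total-count scaling (log2 -0.70, adjusted p = 0.0190).

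The ligands linked to dendritic cells and lymphoid tissue were Ccl22, Ccl17, Ccl19 and Cxcl13. Ccl22 had 0.205, 0.424 and 0.380 CPM in the HFD AAV-BCKDK libraries, against 5.10, 2.99 and 3.86 CPM in HFD AAV-CON and 0.355, 0.0540 and 1.11 CPM in ND AAV-CON. Ccl22, a Ccr4 ligand made by dendritic cells and macrophages, was above the other groups in each HFD AAV-CON library. Ccl22 rose by 2.96 (SE 0.68, adjusted p = 0.00816) in HFD AAV-CON against ND AAV-CON, and fell by 3.55 (SE 0.72, adjusted p = 0.00658) in HFD AAV-BCKDK against HFD AAV-CON. Ccl22 under the diet came to 4.27 without ND AAV-CON replicate 3 (adjusted p = 0.00232). Ccl17 had 0, 0.177 and 0.0712 CPM in the HFD AAV-BCKDK libraries, against 1.07, 0.296 and 0.429 CPM in HFD AAV-CON and 0.164, 0.108 and 0.278 CPM in ND AAV-CON. Ccl17, the other Ccr4 ligand, was higher in all HFD AAV-CON libraries than elsewhere, by a small margin in replicate 2. Ccl17 differed by 1.71 (SE 0.75, adjusted p = 0.0916), not past the threshold, in the diet comparison, and fell by 2.87 (SE 0.86, adjusted p = 0.0274) in the vector comparison. Ccl17 under the diet passed the test under total-count scaling (log2 2.19, adjusted p = 0.0461). The Ccl17 fall under the BCKDK vector was not called without HFD AAV-BCKDK replicates 1 or 3 or HFD AAV-CON replicates 1 or 3 (log2 -2.09 to -3.03, adjusted p 0.0588 to 0.130). Ccl17 under the BCKDK vector came to -3.81 without HFD AAV-BCKDK replicate 2 (adjusted p = 0.0370). Ccl19 had 0.205, 0.389 and 0.166 CPM in the HFD AAV-BCKDK libraries, against 1.11, 1.21 and 1.19 CPM in HFD AAV-CON and 0.301, 0.216 and 0 CPM in ND AAV-CON. Ccl19 guides Ccr7-bearing cells towards lymphoid tissue, and its HFD AAV-CON libraries lay close together above the rest. With the diet Ccl19 rose by 2.76 (SE 0.74, adjusted p = 0.0155), and with the BCKDK vector it fell by 2.22 (SE 0.72, adjusted p = 0.0369). The Ccl19 rise under the diet was not called without HFD AAV-CON replicate 3 (log2 2.74, adjusted p = 0.0518). Ccl19 under the diet came to 3.42 without ND AAV-CON replicate 1 (adjusted p = 0.0255). Ccl19 under the diet came to 2.16 without ND AAV-CON replicate 3 (adjusted p = 0.0119). The Ccl19 fall under the BCKDK vector was not called without HFD AAV-BCKDK replicates 1, 2 or 3, HFD AAV-CON replicates 1, 2 or 3 or ND AAV-CON replicate 2, or with the unnamed loci kept (log2 -1.97 to -2.65, adjusted p 0.0525 to 0.122). Cxcl13 had 0.956, 1.70 and 2.21 CPM in the HFD AAV-BCKDK libraries, against 29.9, 15.1 and 23.9 CPM in HFD AAV-CON and 1.75, 0.783 and 16.4 CPM in ND AAV-CON. Cxcl13, the attractant of B cells through Cxcr5, overlapped between HFD AAV-CON and ND AAV-CON because ND AAV-CON replicate 3 reached the HFD AAV-CON range. Cxcl13 differed by 1.86 (SE 0.85, adjusted p = 0.103), not past the threshold, in the diet comparison, and fell by 3.80 (SE 0.96, adjusted p = 0.0153) in the vector comparison. Cxcl13 under the diet passed the test under limma-voom (log2 2.93, adjusted p = 0.0116) and without ND AAV-CON replicate 3 (log2 4.18, adjusted p = 0.00121). The Cxcl13 fall under the BCKDK vector was not called without HFD AAV-BCKDK replicates 1 or 2 (log2 -3.54 to -3.82, adjusted p 0.0528 to 0.0578). In that library B and plasma cell markers summed to 206 CPM, against 36.6 and 7.32 CPM in its group, and their range was 6.49 to 9.71 CPM in HFD AAV-BCKDK, 88.8 to 265 CPM in HFD AAV-CON and 7.32 to 206 CPM in ND AAV-CON. Of 8 such markers, 1 was called higher under the diet and 6 lower with the vector, and Pax5 had no read in HFD AAV-BCKDK. Their part in the Cxcl13 values was not tested.

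Cx3cl1 and Cxcl16 are anchored in the membrane by a mucin stalk and can be shed, and each has its own receptor. Cxcl16 had 11.1, 17.5 and 17.3 CPM in the HFD AAV-BCKDK libraries, against 109, 53.9 and 83.0 CPM in HFD AAV-CON and 16.8, 13.4 and 27.4 CPM in ND AAV-CON. HFD AAV-CON was above every other library, and ND AAV-CON replicate 3 was next. Cxcl16 rose by 2.09 (SE 0.32, adjusted p = 0.00149) in HFD AAV-CON against ND AAV-CON, and fell by 2.42 (SE 0.33, adjusted p = 0.00149) in HFD AAV-BCKDK against HFD AAV-CON. Cxcl16 shares 552 exonic bases with Zmynd15 on the opposite strand, so part of its reads could belong to that gene. Cx3cl1 had 11.1, 14.0 and 13.2 CPM in the HFD AAV-BCKDK libraries, against 54.1, 20.6 and 39.8 CPM in HFD AAV-CON and 11.7, 13.6 and 12.9 CPM in ND AAV-CON. The other groups were nearly flat, and HFD AAV-CON exceeded them with a wide spread among its own libraries. With the diet Cx3cl1 rose by 1.59 (SE 0.28, adjusted p = 0.00270), and with the BCKDK vector it fell by 1.58 (SE 0.29, adjusted p = 0.00411). Cxcl14 had 16.7, 21.2 and 20.5 CPM in the HFD AAV-BCKDK libraries, against 67.2, 23.1 and 49.8 CPM in HFD AAV-CON and 18.6, 11.5 and 26 CPM in ND AAV-CON. For Cxcl14, a chemokine of stromal and epithelial cells, HFD AAV-CON replicate 2 lay within the ND AAV-CON range, so those groups overlapped. Cxcl14 rose by 1.32 (SE 0.37, adjusted p = 0.0192) in the diet comparison, and fell by 1.26 (SE 0.37, adjusted p = 0.0267) in the vector comparison. The Cxcl14 rise under the diet was not called without HFD AAV-CON replicates 1 or 3 or ND AAV-CON replicates 1 or 2 (log2 0.96 to 1.31, adjusted p 0.0556 to 0.0649). The Cxcl14 fall under the BCKDK vector was not called without HFD AAV-BCKDK replicates 1, 2 or 3 or HFD AAV-CON replicates 1 or 3 (log2 -0.88 to -1.33, adjusted p 0.0653 to 0.0943). Fibroblast markers summed to 2433 to 2632 CPM in HFD AAV-BCKDK, 3441 to 5914 CPM in HFD AAV-CON and 2566 to 2655 CPM in ND AAV-CON, with 9 of 12 called higher under the diet and 10 lower with the vector, and their part in the Cxcl14 values was not tested.

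By contrast, Cxcl12 and Ccl24 were lower in HFD AAV-CON. Cxcl12 had 152, 153 and 162 CPM in the HFD AAV-BCKDK libraries, against 84.5, 116 and 102 CPM in HFD AAV-CON and 186, 172 and 170.1 CPM in ND AAV-CON. Cxcl12 (ENSMUSG00000061353, mm10 chromosome 6 from 117168535 to 117181367) keeps Cxcr4-bearing cells in place, and its HFD AAV-CON libraries were all below the others, with HFD AAV-BCKDK in turn below ND AAV-CON. Cxcl12 fell by 0.80 (SE 0.11, adjusted p = 0.00108) in HFD AAV-CON against ND AAV-CON, and rose by 0.63 (SE 0.11, adjusted p = 0.00404) in HFD AAV-BCKDK against HFD AAV-CON. The rise with the vector was not called under total-count scaling (0.19, adjusted p = 0.0809), where the median of all genes moved to -0.47. Ccl24 had 2.46, 1.70 and 1.35 CPM in the HFD AAV-BCKDK libraries, against 0.0642, 0.458 and 0.405 CPM in HFD AAV-CON and 1.42, 2.97 and 1.49 CPM in ND AAV-CON. Ccl24, an eosinophil attractant through Ccr3, was lower in each HFD AAV-CON library than in any other. With the diet Ccl24 fell by 2.72 (SE 0.61, adjusted p = 0.00713), and with the BCKDK vector it rose by 2.62 (SE 0.61, adjusted p = 0.0113). Endothelial markers, of cells that can make Cxcl12, summed to 1966 to 2225 CPM in HFD AAV-BCKDK, 1197 to 1748 CPM in HFD AAV-CON and 2172 to 2259 CPM in ND AAV-CON, with 8 of 12 called lower under the diet and 9 higher with the vector. Their part in the Cxcl12 values was not tested.

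The neutrophil attractants Cxcl1, Cxcl2 and Cxcl5 were not called in any of the 3 comparisons. Cxcl1 ranged over 1.17 to 2.18 CPM in HFD AAV-BCKDK, 2.04 to 2.53 CPM in HFD AAV-CON and 0.808 to 1.83 CPM in ND AAV-CON. Cxcl2 ranged over 0.205 to 0.641 CPM in HFD AAV-BCKDK, 0.429 to 0.802 CPM in HFD AAV-CON and 0.137 to 0.378 CPM in ND AAV-CON. Cxcl5 ranged over 0.142 to 0.954 CPM in HFD AAV-BCKDK, 0.727 to 1.48 CPM in HFD AAV-CON and 0.405 to 0.530 CPM in ND AAV-CON. These CXC genes sit together on chromosome 5 from 90759360 to 90905938 with Cxcl3 (12 counts in all) and Cxcl15 (no read). Under the diet Cxcl1 differed by 0.78 (SE 0.34, adjusted p = 0.0859). Cxcl2 differed by 1.4 (SE 0.56, adjusted p = 0.0672), and Cxcl5 differed by 1.08 (SE 0.64, adjusted p = 0.200). For all of them the HFD AAV-CON libraries lay above those of ND AAV-CON and overlapped those of HFD AAV-BCKDK. Under total-count scaling Cxcl1 and Cxcl2 passed the test for the diet (1.17, adjusted p = 0.0188, and 1.82, adjusted p = 0.0293) and Cxcl5 for the vector (-1.84, adjusted p = 0.0465), as did Cxcl5 under limma-voom (-1.90, adjusted p = 0.0384). Cxcl1 under the diet passed the test without ND AAV-CON replicate 1 (log2 1.07, adjusted p = 0.0499), and Cxcl5 under the vector without HFD AAV-BCKDK replicate 2 (log2 -2.70, adjusted p = 0.0136). Neutrophil markers were low, summing to 3.96 to 9.97 CPM in HFD AAV-BCKDK, 11.9 to 14.5 CPM in HFD AAV-CON and 2.90 to 4.02 CPM in ND AAV-CON, with 2 of 5 tested called higher under the diet and 1 lower with the vector. Csf3r had 1.36, 1.73 and 2.61 CPM in the HFD AAV-BCKDK libraries, against 10.5, 7.75 and 10.1 CPM in HFD AAV-CON and 1.07, 1.92 and 1.77 CPM in ND AAV-CON. That gene, a receptor of neutrophils and monocytes, made up most of the HFD AAV-CON sum, and S100a8, S100a9 and Retnlg were not called under the diet. Elane, a neutrophil granule protease, had no read in any group, Camp had none in HFD AAV-CON or ND AAV-CON, Ngp none in HFD AAV-BCKDK, and Ly6g and Mpo none in ND AAV-CON.

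The other tested ligands were not called in any comparison either. Ccl11 ranged over 3.35 to 6.58 CPM in HFD AAV-BCKDK, 2.77 to 6.11 CPM in HFD AAV-CON and 4.17 to 5.33 CPM in ND AAV-CON. Ccl21a ranged over 11.4 to 25.6 CPM in HFD AAV-BCKDK, 18.8 to 31.6 CPM in HFD AAV-CON and 14.8 to 23.0 CPM in ND AAV-CON. Ccl21b ranged over 0.375 to 0.813 CPM in HFD AAV-BCKDK, 0.458 to 0.722 CPM in HFD AAV-CON and 0.189 to 0.455 CPM in ND AAV-CON. Ccl11 is an eosinophil attractant, and Ccl21a and Ccl21b are near-identical copies of the lymphatic Ccr7 ligand between which reads cannot be assigned surely. Ccl25 ranged over 0.848 to 1.36 CPM in HFD AAV-BCKDK, 0.458 to 1.19 CPM in HFD AAV-CON and 0.683 to 0.972 CPM in ND AAV-CON. Ccl27a ranged over 2.09 to 4.14 CPM in HFD AAV-BCKDK, 1.57 to 2.29 CPM in HFD AAV-CON and 2.73 to 3.14 CPM in ND AAV-CON. Xcl1 ranged over 0 to 0.570 CPM in HFD AAV-BCKDK, 0.501 to 0.850 CPM in HFD AAV-CON and 0 to 1.26 CPM in ND AAV-CON. Ccl25 acts on Ccr9 in thymus and gut, Ccl27a on Ccr10 in skin, and Xcl1 on Xcr1 of cross-presenting dendritic cells. Reads of Ccl27a could also be split with its near-identical copy Ccl27b. On the opposite strand, Ccl25 shares 204 exonic bases with Elavl1 and Xcl1 shares 98 with Gm20743. Of ligands with too few reads, Ccl1 had 31 counts in all, of which 29 were in HFD AAV-CON, Ccl28 had 47 and Ccl27b 12.

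**Figure D2:**
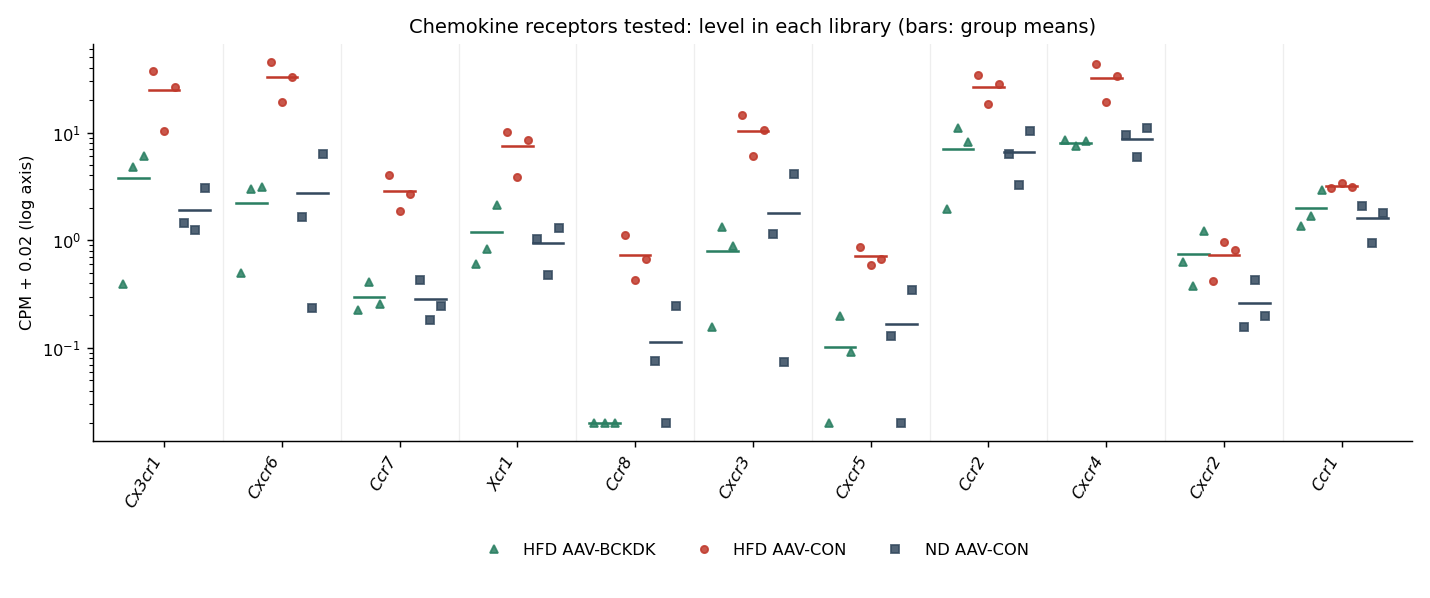
Level of the tested receptors described in the text, in CPM plus 0.02 on a log axis, in the same layout as the plot of ligands. HFD AAV-CON libraries lie above the others for every receptor shown except Cxcr2, and Ccr8 is at 0 in every HFD AAV-BCKDK library.

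Among receptors, 10 of 12 were called higher under the diet and 10 lower with the vector, where 22.7% and 20.9% of all genes tested were. Ccr2 had 1.95, 11 and 8.12 CPM in the HFD AAV-BCKDK libraries, against 34.0, 18.3 and 28.0 CPM in HFD AAV-CON and 6.29, 3.21 and 10.4 CPM in ND AAV-CON. Ccr2, the receptor of inflammatory monocytes, was above the other groups in every HFD AAV-CON library, and HFD AAV-BCKDK replicate 1 was the lowest of all. Ccr2 rose by 2.01 (SE 0.56, adjusted p = 0.0179) in HFD AAV-CON against ND AAV-CON, and fell by 1.93 (SE 0.56, adjusted p = 0.0250) in HFD AAV-BCKDK against HFD AAV-CON. The Ccr2 rise under the diet was not called without ND AAV-CON replicates 1 or 2 (log2 1.68 to 1.97, adjusted p 0.0599 to 0.0612). The Ccr2 fall under the BCKDK vector was not called without HFD AAV-BCKDK replicate 3 or HFD AAV-CON replicates 1 or 3 (log2 -1.69 to -2.05, adjusted p 0.0598 to 0.0682). Ccr1 had 1.33, 1.66 and 2.92 CPM in the HFD AAV-BCKDK libraries, against 3.02, 3.42 and 3.08 CPM in HFD AAV-CON and 2.05, 0.918 and 1.77 CPM in ND AAV-CON. Ccr1, on monocytes and neutrophils, was above both other groups in HFD AAV-CON, and HFD AAV-BCKDK replicate 3 came close to the HFD AAV-CON range. Ccr1 rose by 1.0 (SE 0.35, adjusted p = 0.0446) in the diet comparison, and differed by -0.67 (SE 0.35, adjusted p = 0.157), not past the threshold, in the vector comparison. The Ccr1 rise under the diet was not called without HFD AAV-BCKDK replicate 2, HFD AAV-CON replicates 1, 2 or 3 or ND AAV-CON replicates 2 or 3, or with the unnamed loci kept (log2 0.73 to 1.09, adjusted p 0.0588 to 0.125). Ccr1 under the BCKDK vector passed the test under total-count scaling (log2 -1.11, adjusted p = 0.0322).

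Cxcr3 had 0.137, 1.31 and 0.855 CPM in the HFD AAV-BCKDK libraries, against 14.4, 6.0 and 10.7 CPM in HFD AAV-CON and 1.12, 0.0540 and 4.12 CPM in ND AAV-CON. Cxcr3 marks activated T and NK cells, and ND AAV-CON replicate 3 was the highest library outside HFD AAV-CON. Cxcr3 rose by 2.55 (SE 0.91, adjusted p = 0.0476) in HFD AAV-CON against ND AAV-CON, and fell by 3.75 (SE 1.0, adjusted p = 0.0186) in HFD AAV-BCKDK against HFD AAV-CON. The Cxcr3 rise under the diet was not called without HFD AAV-BCKDK replicates 2 or 3, HFD AAV-CON replicates 1 or 3 or ND AAV-CON replicates 1 or 2, or under DESeq2, with the unnamed loci kept or in a fit of those groups alone (log2 1.98 to 2.57, adjusted p 0.0616 to 0.136). Cxcr3 under the diet came to 4.14 without ND AAV-CON replicate 3 (adjusted p = 0.0121). The Cxcr3 fall under the BCKDK vector was not called without HFD AAV-BCKDK replicates 1 or 3 or HFD AAV-CON replicate 3 (log2 -3.28 to -3.85, adjusted p 0.0528 to 0.0592). Cxcr6 had 0.478, 3.00 and 3.09 CPM in the HFD AAV-BCKDK libraries, against 45.3, 19.1 and 33.1 CPM in HFD AAV-CON and 1.64, 0.216 and 6.29 CPM in ND AAV-CON. The same library was again the nearest to HFD AAV-CON for Cxcr6, the receptor of Cxcl16 on tissue-resident T and NKT cells. With the diet Cxcr6 rose by 3.57 (SE 0.86, adjusted p = 0.00991), and with the BCKDK vector it fell by 3.87 (SE 0.89, adjusted p = 0.0105). Cxcr6 under the diet came to 5.13 without ND AAV-CON replicate 3 (adjusted p = 0.00388). Cx3cr1 had 0.375, 4.81 and 6.10 CPM in the HFD AAV-BCKDK libraries, against 37.2, 10.3 and 26.6 CPM in HFD AAV-CON and 1.42, 1.22 and 3.06 CPM in ND AAV-CON. Cx3cr1, the fractalkine receptor of monocytes and macrophages, ran low in HFD AAV-BCKDK replicate 1 and was above all others in HFD AAV-CON. It shares 78 exonic bases with Gm33858 on the opposite strand. Cx3cr1 rose by 3.70 (SE 0.79, adjusted p = 0.00570) in the diet comparison, and fell by 2.70 (SE 0.74, adjusted p = 0.0207) in the vector comparison. The Cx3cr1 fall under the BCKDK vector was not called without HFD AAV-BCKDK replicate 2 or HFD AAV-CON replicates 1 or 3 (log2 -2.25 to -2.88, adjusted p 0.0551 to 0.0599).

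Ccr7 had 0.205, 0.389 and 0.237 CPM in the HFD AAV-BCKDK libraries, against 4.06, 1.86 and 2.69 CPM in HFD AAV-CON and 0.410, 0.162 and 0.227 CPM in ND AAV-CON. Ccr7, which leads dendritic and T cells to lymph nodes, was low and flat outside HFD AAV-CON. Ccr7 rose by 3.42 (SE 0.45, adjusted p = 0.000860) in HFD AAV-CON against ND AAV-CON, and fell by 3.38 (SE 0.46, adjusted p = 0.00149) in HFD AAV-BCKDK against HFD AAV-CON. Xcr1 had 0.580, 0.813 and 2.11 CPM in the HFD AAV-BCKDK libraries, against 10.1, 3.88 and 8.51 CPM in HFD AAV-CON and 1.01, 0.459 and 1.29 CPM in ND AAV-CON. Xcr1, the receptor of cross-presenting dendritic cells, had its lowest HFD AAV-CON library in replicate 2, still above the rest. With the diet Xcr1 rose by 3.02 (SE 0.55, adjusted p = 0.00299), and with the BCKDK vector it fell by 2.64 (SE 0.54, adjusted p = 0.00678). Xcr1 under the BCKDK vector came to -3.43 without HFD AAV-BCKDK replicate 3 (adjusted p = 0.00856). Dendritic cell markers summed to 59.8 to 64.0 CPM in HFD AAV-BCKDK, 72.3 to 76.8 CPM in HFD AAV-CON and 49.96 to 56.0 CPM in ND AAV-CON, with 5 of 7 called higher under the diet and 3 lower with the vector, and their part in these values was not tested. Cxcr5 had 0, 0.177 and 0.0712 CPM in the HFD AAV-BCKDK libraries, against 0.850, 0.565 and 0.644 CPM in HFD AAV-CON and 0.109, 0 and 0.328 CPM in ND AAV-CON. Cxcr5, the B cell and follicular T cell receptor of Cxcl13, was above the other groups in each HFD AAV-CON library. It shares 110 exonic bases with Bcl9l on the opposite strand, so part of its few reads could belong to that gene. Cxcr5 differed by 2.20 (SE 0.90, adjusted p = 0.0743), not past the threshold, in the diet comparison, and fell by 3.04 (SE 1.0, adjusted p = 0.0383) in the vector comparison. Cxcr5 under the diet passed the test under total-count scaling (log2 2.61, adjusted p = 0.0400), under limma-voom (log2 3.08, adjusted p = 0.0270) and without ND AAV-CON replicate 3 (log2 3.59, adjusted p = 0.0337). The Cxcr5 fall under the BCKDK vector was not called without HFD AAV-BCKDK replicates 1, 2 or 3, HFD AAV-CON replicates 1 or 3 or ND AAV-CON replicate 1, or with no filter on low counts or with the unnamed loci kept (log2 -2.51 to -3.99, adjusted p 0.0559 to 0.114).

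Cxcr4 had 8.46, 7.42 and 8.31 CPM in the HFD AAV-BCKDK libraries, against 43.3, 19.1 and 33.5 CPM in HFD AAV-CON and 9.46, 5.89 and 11 CPM in ND AAV-CON. Cxcr4, the receptor of Cxcl12 on most leukocytes, was above both other groups in every HFD AAV-CON library. Cxcr4 rose by 1.86 (SE 0.30, adjusted p = 0.00172) in HFD AAV-CON against ND AAV-CON, and fell by 1.99 (SE 0.30, adjusted p = 0.00207) in HFD AAV-BCKDK against HFD AAV-CON. Ccr8, a receptor of Ccl1 and Ccl8 on T cell subsets, had no read in HFD AAV-BCKDK, 1.09, 0.404 and 0.644 CPM in HFD AAV-CON and 0.0547, 0 and 0.227 CPM in ND AAV-CON. Ccr8 reached the filter minimum in HFD AAV-CON libraries only, so it could be tested only by differing. It stays in the counts of calls, in the plot of changes and in lists of genes by call or p elsewhere, where its test supports nothing by itself. Its values are given here as a description with no test. Against HFD AAV-CON it was at least 23.7-fold lower in HFD AAV-BCKDK, taking 3 counts over the group as the floor. Cxcr2 ranged over 0.353 to 1.21 CPM in HFD AAV-BCKDK, 0.401 to 0.942 CPM in HFD AAV-CON and 0.137 to 0.405 CPM in ND AAV-CON. Cxcr2, the receptor of neutrophils, was not called in any comparison, and it differed by 1.54 (SE 0.61, adjusted p = 0.0669) under the diet and differed by 0.07 (SE 0.56, adjusted p = 0.929) with the vector. Its rise under the diet passed the test under DESeq2 (1.56, adjusted p = 0.0442) and total-count scaling (1.89, adjusted p = 0.0265). The untested receptors had 74 counts or fewer in all 9 libraries together, and of the 74 of Ccr4, the receptor of Ccl17 and Ccl22, 64 were in HFD AAV-CON.

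**Figure D3:**
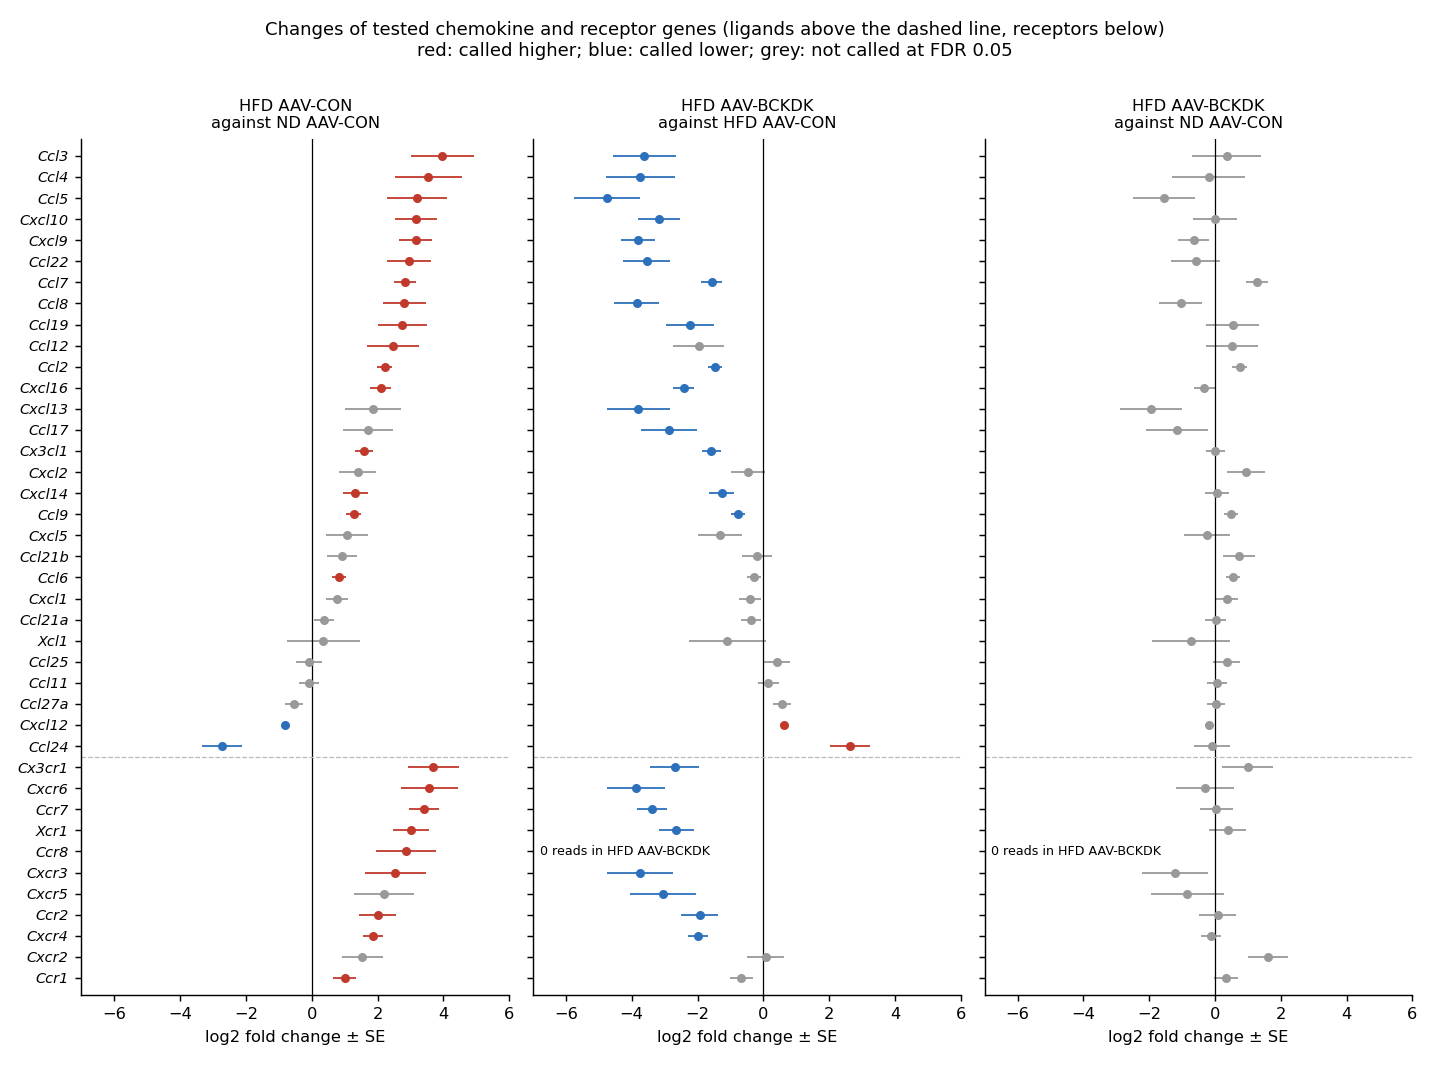
Log2 fold change of the tested genes described in the text with its standard error, by comparison, with ligands above the dashed line and receptors below; red marks a gene called higher, blue lower and grey not called. Most genes are red in the left panel and blue in the middle panel, and none is coloured in the right panel; Ccr8 has no point where HFD AAV-BCKDK had 0 reads.

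Ligands and receptors were set beside each other in 39 known pairs, of which 25 had both partners tested, over 12 receptors and 21 ligands. Under the diet both partners were called higher in 18 pairs and the calls differed in 3. With the vector both were called lower in 12 pairs and the calls differed in 9. Pairs share members, so these are counts and not independent results. Of all genes tested, taken singly, 22.7% were called higher under the diet and 20.9% lower with the vector. Since 10 of the 12 tested receptors were called in each comparison, joint calls follow in part from the counts of called genes. Some pairs hold Ccl19, Ccr7, Ccr8 or Cxcr5, which passed the filter mainly or only through HFD AAV-CON. The counts therefore also lean towards a high HFD AAV-CON. In the Cxcl12 and Cxcr4 pair the partners moved oppositely: under the diet the log2 change was -0.80 for the ligand and 1.86 for the receptor, and with the vector it was 0.63 and -1.99. For Xcl1 and Xcr1, and for Ccl21a and Ccr7, the receptor was called in both comparisons and the ligand in neither.

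**Figure D4:**
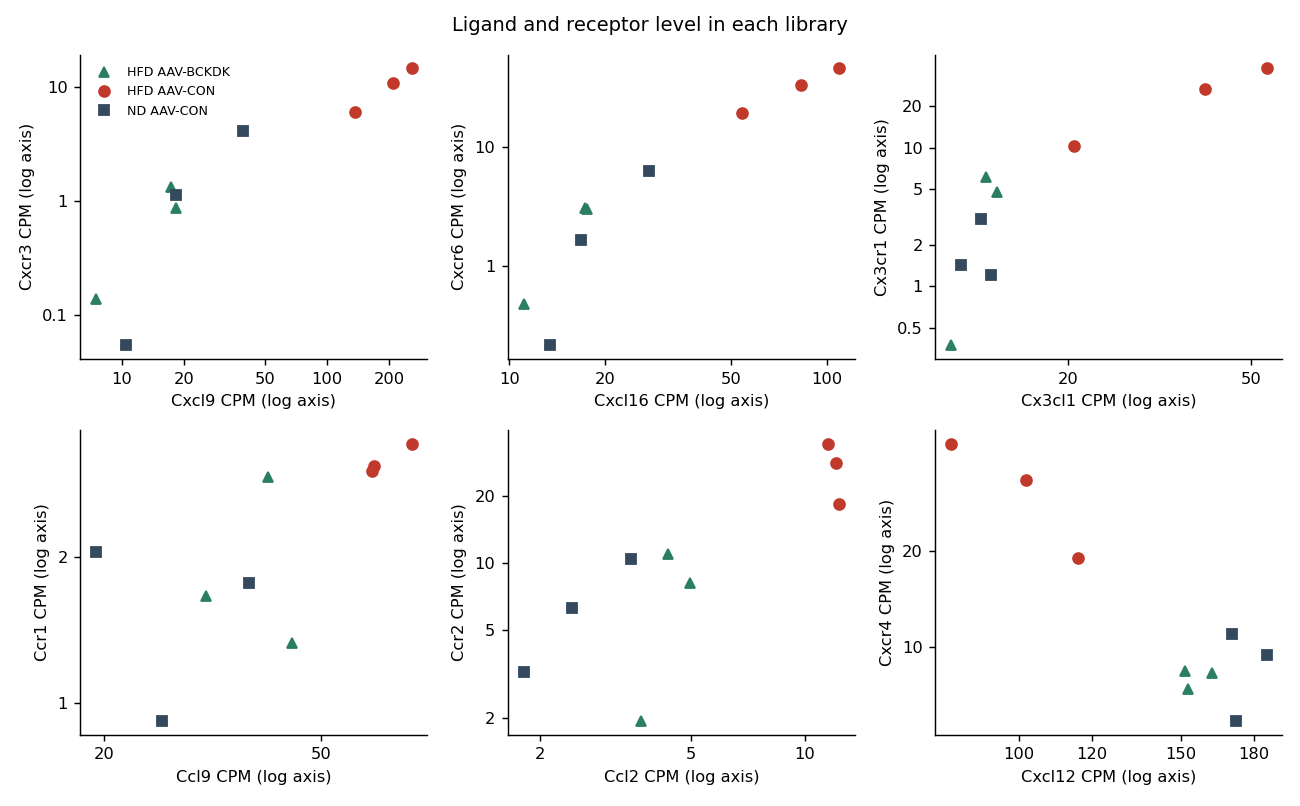
Level of 6 receptors against that of a ligand of each, in CPM on log axes, with 1 point per library. HFD AAV-CON libraries lie at the upper right for 5 pairs and at the upper left for Cxcl12 and Cxcr4.

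By position, 40 of the 56 genes fell into 10 clusters in which neighbours lay within 500 kb. Of all genes tested, 22.7% were called higher under the diet and 20.9% lower with the vector. In the Ccl cluster from Ccl2 to Ccl1, 4 of 5 tested genes were called higher under the diet and 3 lower with the vector, and in the cluster from Ccl5 to Ccl4, 5 of 5 were called higher and 4 lower. On chromosome 8, from 94745590 to 94812036, Ccl22 and Cx3cl1 were called higher under the diet, and these with Ccl17 lower with the vector. On chromosome 9, Cx3cr1 (with Ccr8 at 119901616 to 120094906) was called higher under the diet and lower with the vector. Ccr8 is left out of this, since it could be tested only by differing. The cluster of Cxcl5, Cxcl3, Cxcl15, Cxcl1 and Cxcl2 had no call in 3 tested genes, though it lies on the same chromosome as Cxcl9 and Cxcl10.

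Compared per kb of exonic length, the leading ligands differed between groups. In HFD AAV-BCKDK, Ccl6 was first at 34.4 ± 6.05 CPM per kb (SD, n = 3), before Ccl21a at 23.2 ± 8.85 and Cxcl12 at 19.0 ± 0.713 CPM per kb. The spreads of Ccl6 and Ccl21a overlap, as do those of Ccl21a and Cxcl12. In HFD AAV-CON, Ccl8 was first at 149.8 ± 13.3 CPM per kb, before Ccl5 at 79.3 ± 12.8 and Cxcl9 at 66.8 ± 20.2 CPM per kb, with Ccl8 beyond the spread of Ccl5 and the spreads of Ccl5 and Cxcl9 overlapping. In ND AAV-CON, Ccl6 at 23.5 ± 6.41, Ccl21a at 23.0 ± 5.16, Cxcl12 at 21.5 ± 1.04 and Ccl8 at 21.2 ± 20.1 CPM per kb did not differ beyond their spread. Of the receptors described, Cxcr4 led with 4.46 ± 0.311 CPM per kb in HFD AAV-BCKDK, 17.7 ± 6.74 in HFD AAV-CON and 4.86 ± 1.45 in ND AAV-CON. Its spread overlapped that of Cxcr6 in HFD AAV-CON, at 16.8 ± 6.77 CPM per kb. The order depends on the length used: per kb of coding length Cxcl12 led the ligands in HFD AAV-BCKDK (435.6 ± 16.3 CPM per kb) and ND AAV-CON (492.7 ± 23.9), and Cxcl9 led in HFD AAV-CON (532.8 ± 161).

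Between HFD AAV-BCKDK and ND AAV-CON none of the 41 genes was called by edgeR, where 1.18% of all genes tested were called higher and 1.27% lower. At an unadjusted p under 0.05 there were 6 (Ccl2, Ccl6, Ccl7, Ccl9, Ccr8 and Cxcr2), against 17% of all genes, and limma-voom called none. DESeq2 called 2 higher, Ccl7 at 1.30 (adjusted p = 0.00462) and Ccl2 at 0.77 (adjusted p = 0.0257). It also called more of all 14160 genes here, 902 in both directions, against 347 by edgeR. The median log2 fold change of the 41 was 0.03, against -0.03 over all genes. By edgeR, Ccl7 differed by 1.28 (SE 0.34, adjusted p = 0.0897) and Ccl2 by 0.75 (SE 0.22, adjusted p = 0.121), and for both each HFD AAV-BCKDK library exceeded each ND AAV-CON library. At the other end, Cxcl13 differed by -1.94 (SE 0.94, adjusted p = 0.34) and Ccl5 by -1.56 (SE 0.94, adjusted p = 0.447), and in both the groups overlapped. A missed threshold does not show equal levels.

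Among receptors outside the naming rule, atypical and related ones gave 2 higher and 2 lower of 9 under the diet, and 1 higher and 4 lower with the vector. Over all genes tested, 22.7% were called higher and 20.6% lower under the diet, so the diet counts were near these shares. With the vector the shares were 17.3% higher and 20.9% lower. Ackr3, a scavenger of Cxcl12, had 68.1, 88.2 and 72.1 CPM in HFD AAV-BCKDK, 56.9, 66.3 and 61.8 CPM in HFD AAV-CON and 96.0, 99.6 and 89.4 CPM in ND AAV-CON. Like its ligand, it was lowest in HFD AAV-CON: with the diet Ackr3 fell by 0.62 (SE 0.11, adjusted p = 0.00229), and it rose by 0.30 (SE 0.11, adjusted p = 0.04996) in HFD AAV-BCKDK against HFD AAV-CON. That rise lay at the edge of the threshold. It was also smaller than the move of the median of all genes to -0.47 under total-count scaling in the same comparison. Gpr35, a receptor of macrophages and gut epithelium, had 0.683, 1.34 and 1.02 CPM, 17.3, 7.40 and 10.6 CPM and 0.683, 0.540 and 1.51 CPM in the same order of groups, with HFD AAV-CON apart. It rose by 3.68 (SE 0.45, adjusted p = 0.000664) under the diet and fell by 3.54 (SE 0.45, adjusted p = 0.00129) with the vector. Cmklr1, the chemerin receptor, rose by 1.14 (SE 0.12, adjusted p = 0.000498) under the diet and fell by 0.91 (SE 0.12, adjusted p = 0.00149) with the vector. Of 8 chemokines and chemokine-like genes with other names, 3 were called higher and 1 lower under the diet, and 3 lower with the vector. In both comparisons the 3 were the membrane protein genes Cmtm3, Cmtm6 and Cmtm7. With the vector Cmtm7 fell by 0.91 (SE 0.13, adjusted p = 0.00182). Of the CXC chemokines Pf4 and Ppbp in that list, Ppbp fell by 1.51 (SE 0.51, adjusted p = 0.0372) under the diet and was not called with the vector. Pf4 was not called in either comparison.

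Other genes of the pathway were counted by role, against 22.7% of all genes tested called higher under the diet and 20.9% lower with the vector. Of 49 tested genes of chemokine receptor signalling, 38 were called higher and 2 lower under the diet, and 38 lower and 3 higher with the vector. The list holds a gene that passed the filter on low counts mainly through HFD AAV-CON, and its calls support nothing by themselves. Was, an actin regulator of blood cells, rose by 1.97 (SE 0.25, adjusted p = 0.000757) under the diet and fell by 2.05 (SE 0.25, adjusted p = 0.00126) with the vector. Rgs1, which dampens G protein signals of these receptors, rose by 3.66 (SE 0.48, adjusted p = 0.000827) under the diet and fell by 4.49 (SE 0.51, adjusted p = 0.00124) with the vector. Upstream, NF-kB subunits and feedback inhibitors had 11 of 15 called higher under the diet and 11 lower with the vector, among them Bcl3, a nuclear NF-kB partner, which rose by 1.61 (SE 0.16, adjusted p = 0.000351) and fell by 1.32 (SE 0.15, adjusted p = 0.00125). Of 21 inducers of chemokines, 14 were tested, all of them called higher under the diet and 13 lower with the vector. Some of the 14 reached the filter minimum of 0.248 CPM only in HFD AAV-CON libraries. Their calls, and these counts, lean towards a high HFD AAV-CON and support nothing by themselves. Irf7, a regulator of interferon genes, rose by 1.75 (SE 0.17, adjusted p = 0.000351) under the diet and fell by 1.5 (SE 0.17, adjusted p = 0.00124) with the vector. Irf1, an interferon-induced transcription factor, rose by 1.18 (SE 0.15, adjusted p = 0.000798) under the diet and fell by 0.97 (SE 0.15, adjusted p = 0.00224) with the vector. Ifnb1, Il13 and Csf3 had no read.

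Genes of presentation and adhesion were counted in the same way and against the same shares of all genes. Of 17 that cleave or present chemokines, 12 were called higher under the diet and 10 lower with the vector, with Sdc3, a heparan sulfate proteoglycan, at a rise of 1.04 (SE 0.10, adjusted p = 0.000409) and Adam17, the sheddase that can release Cx3cl1, at a rise of 0.87 (SE 0.13, adjusted p = 0.00133). Of 19 leukocyte adhesion genes, 10 were called higher and 3 lower under the diet, and 10 lower and 2 higher with the vector. Itgb2, the shared subunit of leukocyte integrins, had 7.34, 13.8 and 16.0 CPM in HFD AAV-BCKDK, 120.5, 76.5 and 95.9 CPM in HFD AAV-CON and 11.6, 10.6 and 21.6 CPM in ND AAV-CON, with HFD AAV-CON apart. It rose by 2.74 (SE 0.34, adjusted p = 0.000754) under the diet and fell by 2.98 (SE 0.35, adjusted p = 0.00126) with the vector.

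**Figure D5:**
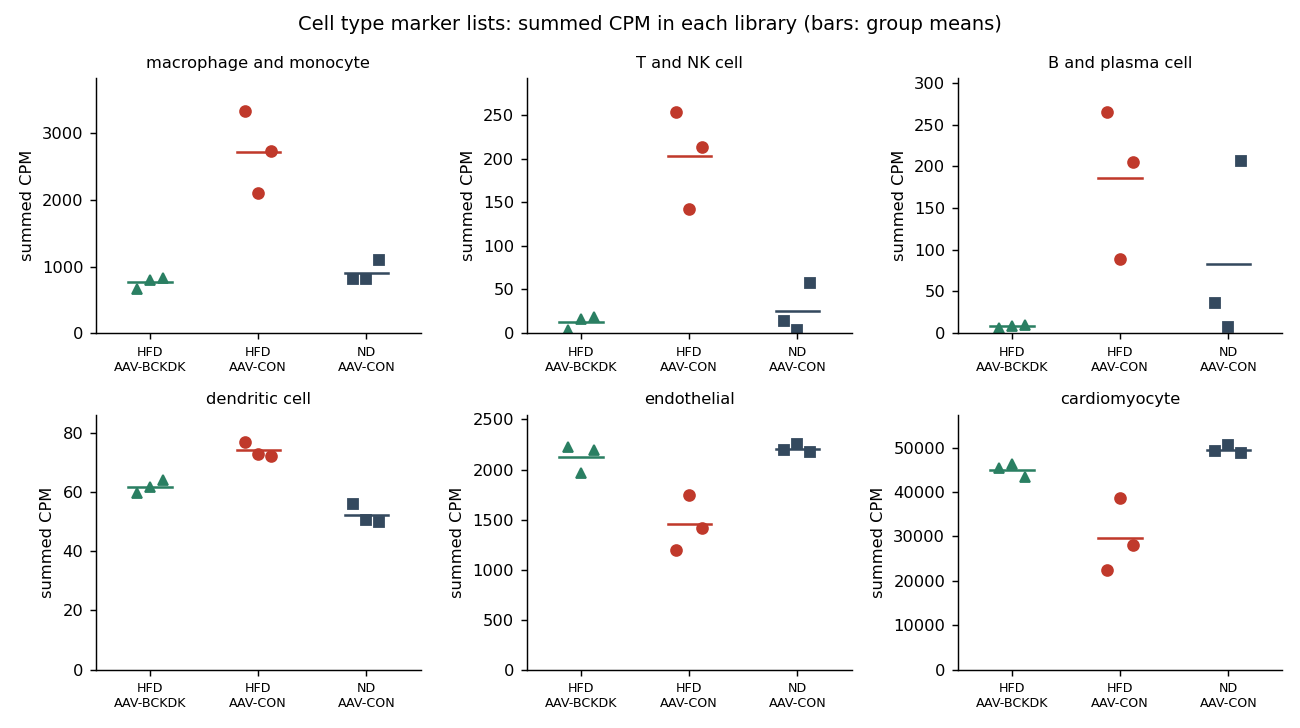
Summed CPM of marker lists for 6 cell types in each library, with a bar at each group mean and every axis from 0. Macrophage and T and NK cell sums are highest in HFD AAV-CON, and endothelial and cardiomyocyte sums are lowest there.

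Other marker lists also differed between the groups. Of all genes tested, 22.7% were called higher and 20.6% lower under the diet, and 17.3% higher and 20.9% lower with the vector. The 12 cardiomyocyte markers had 10 called lower under the diet and 8 higher with the vector. Atrial markers summed to 67.2 to 182 CPM in HFD AAV-BCKDK, 301 to 1503 CPM in HFD AAV-CON and 91.0 to 216 CPM in ND AAV-CON, with 2 of 4 tested called higher under the diet and 2 lower with the vector, and Myl7 had no read in HFD AAV-BCKDK. Erythroid markers had 6 of 6 called lower under the diet and 6 higher with the vector, at 987 to 1587 CPM in HFD AAV-BCKDK, 471 to 916 CPM in HFD AAV-CON and 1497 to 1676 CPM in ND AAV-CON. Pericyte and smooth muscle markers had 4 of 10 called lower and 3 higher in the same comparisons. Their part in the chemokine results was not tested.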

How the data were processed

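Left ventricle RNA gave 9 libraries, prepared by Trizol extraction and a VAHTS mRNA-seq v2 kit according to the labels. HISAT2 2.0.5 and the mm10 build are named in the submitters' processing notes. Not given in the sources used here: counting tool, annotation and strand setting. The deposited table holds raw counts per gene, in 26178 rows, of which the 22036 with an Ensembl identifier were kept.

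Genes passing edgeR's filterByExpr (minimum 0.248 CPM) were scaled by TMM and tested with edgeR 4.0.16's quasi-likelihood test in R 4.3.3 on all 9 libraries (6 residual degrees of freedom), with Benjamini-Hochberg adjustment over all 14160 genes at a false discovery rate of 0.05. CPM values were computed here from the deposited counts; SE is the log2 fold change divided by the root of F. A group without reads was set to a floor of 3 counts, which covers counting error only. Alternatives used other scalings, filters and thresholds, DESeq2 1.42.0, limma-voom (limma 3.58.1), a replicate block and fits without each library. Positions are from GENCODE on GRCm38, the assembly of mm10.

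Chemokine genes are described with values in each library for those called in at least 1 comparison and ranges for the rest. Of each other list, up to 3 genes with the smallest p for the diet could be named. Pf4 and Ppbp, chemokines with other names, are named besides. The genes and lists were chosen with earlier results of these data known. The result for 1 tested receptor, which stays in the counts, is not reported here.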

Additional observations from a re-analysis of the deposited data

How the results depend on the processing

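Of 41 tested genes, 28 were called for the diet (HFD AAV-CON over ND AAV-CON), 28 for the vector (HFD AAV-BCKDK over HFD AAV-CON) and 0 where both differed (HFD AAV-BCKDK over ND AAV-CON). At a false discovery rate of 0.01 the first 2 counts came to 17 and 14. With 1 library left out at a time, the first ranged over 21 to 30, the second over 18 to 28 and the third over 0 to 0. The lowest of the first and second came without HFD AAV-CON replicate 3. Calls over all genes were also fewest without it, at 4050 and 2847. DESeq2 gave 2 calls in the third comparison, Ccl7 and Ccl2, where the other settings gave 0. Over all 14160 genes tested it called 902 there, against 347 by edgeR. Other scalings, filters and tests gave 24 to 33 calls in the first and 25 to 31 in the second. Total-count scaling moved the median log2 fold change of all genes to 0.40, -0.47 and -0.08 in the 3 comparisons. No called gene changed direction under these settings. With the replicate number as a replicate block the counts were 27, 25 and 0. For the diet Ccr1 (adjusted p = 0.0519) and Ccr8 were not called and Cxcl13 was (log2 2.64, adjusted p = 0.0339). For the vector Ccl17 (adjusted p = 0.0699), Ccl19 (0.0506) and Cxcr5 (0.0708) were not called. Same-numbered libraries had correlated deviations of -0.28 to 0.25 over the comparisons, so the numbers are not taken to pair the samples. Depth limits the genes near the filter minimum, and those with fewer reads were not tested.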
